A study of Mus musculus with 4 samples.

Results

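The transcription factors that hold mouse embryonic stem cells (mESCs) in the naive state were followed as a set of 10 genes, Klf2, Klf4, Klf5, Esrrb, Tbx3, Tfcp2l1, Zfp42, Prdm14, Nr0b1 and Nr5a2, out of 37620 genes in an RNA-seq count table. The members were chosen by name, and all 10 were found in the table and passed the filter on low counts. The comparison was between MUT_CTCF and WT_CTCF mESCs, with 2 libraries of each. Both lines were derived from CTCF-EGFP-AID mESCs, in which the endogenous architectural protein CTCF carries a degron tag and is removed by auxin. WT_CTCF mESCs carried a vector with wild-type CTCF, and MUT_CTCF mESCs carried the same vector with CTCF mutated at T668, a threonine that accepts the O-GlcNAc sugar. Both lines were selected in hygromycin, were grown on gelatin in serum with LIF (leukemia inhibitory factor), and were picked as clones, so that clone and genotype cannot be told apart. Endogenous CTCF was removed by 2 days in auxin, and the methods name no separate time for the RNA-seq libraries. The 2 libraries of a line were given as biological replicates, and nothing says whether they came from separate thaws or passages, so that the p-values measure the spread between these libraries. The series asked whether gene expression differs when CTCF cannot be modified at this residue.

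Naive pluripotency is the state of the preimplantation epiblast, which mESCs keep in culture under LIF. LIF acts through the kinase JAK and the factor STAT3 to drive Klf4 and Tfcp2l1, WNT signals lift the repressor TCF7L1 from Esrrb and Tfcp2l1, and FGF4 acting through ERK pushes cells out of the state. The naive factors sit between these signals and the core factors OCT4 (Pou5f1), SOX2 and NANOG. They bind one another's enhancers and can replace one another in part, and most are lost as cells go through the formative state towards the primed state of the postimplantation epiblast.

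The sequence just before the transcription start of 3 members is shown, since these were the 3 whose WT_CTCF and MUT_CTCF libraries did not overlap. Of all genes that passed the filter, 44.7% did not overlap either. The sequences are the 250 bases before each start in the RefSeq promoter table, which was made on another build, and each was placed by an exact and single match in mm9. Capitals mark motif matches on either strand.
Klf4 (chr4:55545348-55545597, minus strand): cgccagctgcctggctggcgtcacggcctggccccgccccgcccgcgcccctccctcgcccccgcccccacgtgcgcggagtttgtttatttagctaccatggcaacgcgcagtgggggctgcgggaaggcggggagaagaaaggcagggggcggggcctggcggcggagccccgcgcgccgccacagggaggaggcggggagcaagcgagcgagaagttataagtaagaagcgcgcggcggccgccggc
Zfp42 (chr8:44392364-44392613, minus strand): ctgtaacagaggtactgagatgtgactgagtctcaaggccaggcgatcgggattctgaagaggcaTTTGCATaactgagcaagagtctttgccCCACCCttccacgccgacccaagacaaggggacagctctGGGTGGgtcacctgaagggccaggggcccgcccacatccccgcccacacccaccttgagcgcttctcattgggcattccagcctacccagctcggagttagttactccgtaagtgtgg
Nr0b1 (chrX:83436864-83437102, plus strand, cut at the annotated exon): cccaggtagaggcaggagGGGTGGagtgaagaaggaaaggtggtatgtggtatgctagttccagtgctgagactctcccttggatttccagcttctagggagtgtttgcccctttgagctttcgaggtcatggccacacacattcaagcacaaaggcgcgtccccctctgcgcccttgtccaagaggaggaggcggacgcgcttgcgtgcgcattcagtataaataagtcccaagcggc

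The Zfp42 promoter held the octamer core TTTGCAT, which is bound by OCT4, and 2 copies of the KLF-type CACC box CCACCC. The Nr0b1 promoter held 1 CACC box, and the GC-rich Klf4 promoter, at 74% GC against a median of 52.4% over all 32851 promoters in the table, held none of the motifs searched. The table had promoters for 7 members, with 9 starts in all. The CACC box was in 6 of these 9, against 28.1% of all promoters, and the octamer core was in 1 of 9, against 4.12%. The STAT site TTCNNNGAA was in 1 of 9, a start of Esrrb, against 7.02% of all promoters. The element AAGGTCA, bound by the orphan receptors ESRRB and NR5A2, was in 0 of 9 against 4.08%, and the CTCF core letters CCANNAGNNGGC were in 0 of 9 against 2.07%. A match is only a match of letters in this short window.

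Total counts per library ran from 40524694 to 40977464, a count of 0 in a library allowed a level of up to 0.0732 to 0.074 CPM (reads scaled to a common library total) for counting error alone, and the biological coefficient of variation was 4.69%. Ctcf RNA, the gene behind the labels, was 18302 and 18669 normalized counts in WT_CTCF and 18791 and 19325 in MUT_CTCF mESCs, with an adjusted p of 0.499 in edgeR's quasi-likelihood test. These counts do not separate the endogenous from the vector transcript and carry no call of the residue, so they could not check the label. The mESC markers Pou5f1, Sox2 and Nanog were abundant in all 4 libraries, at 30797 to 33171, 20760 to 22475 and 57886 to 60106 normalized counts, which matches the labelled cell type. A normalized count is a read count scaled to the mean effective library. In bulk RNA, fewer cells of a type and less RNA per cell cannot be told apart.

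All 10 naive factors were expressed in both lines, and their order of level was nearly the same in every library. Levels were compared between genes as TPM, a read count divided by exon length and scaled to the same total in every library. Zfp42, also called Rex1, a zinc finger protein widely used as a reporter of the naive state, reached 1204 and 1209 TPM in WT_CTCF and 1193 and 1167 TPM in MUT_CTCF mESCs. Klf2, a zinc finger factor of the KLF family, reached 1164 and 1188 TPM in WT_CTCF and 1116 and 1225 TPM in MUT_CTCF mESCs. These are the top pair, whose levels overlapped and swapped order between libraries. Esrrb, an orphan nuclear receptor downstream of GSK3 inhibition, followed at 384 and 402 TPM in WT_CTCF and 394 and 395 TPM in MUT_CTCF mESCs. Tfcp2l1, a grainyhead-like factor driven by LIF, was at 306 to 325 TPM over the 4 libraries, and Klf4 was at 251 to 287 TPM. Tbx3, a T-box factor that acts beside the LIF pathway, was at 227 to 237 TPM, and Klf5 was at 135 to 148 TPM. The lower end of the set was held by genes for a corepressor, an epigenetic regulator and a receptor. Nr0b1 (DAX1), an atypical nuclear receptor that binds and restrains OCT4, was at 110 to 126 TPM. Prdm14, a PR-domain protein that keeps FGF signalling and DNA methylation low, was at 71.9 to 81.2 TPM, and Nr5a2 (LRH-1), an orphan receptor of the Pou5f1 regulatory region, was at 39.8 to 43.7 TPM.

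**Figure D1:**
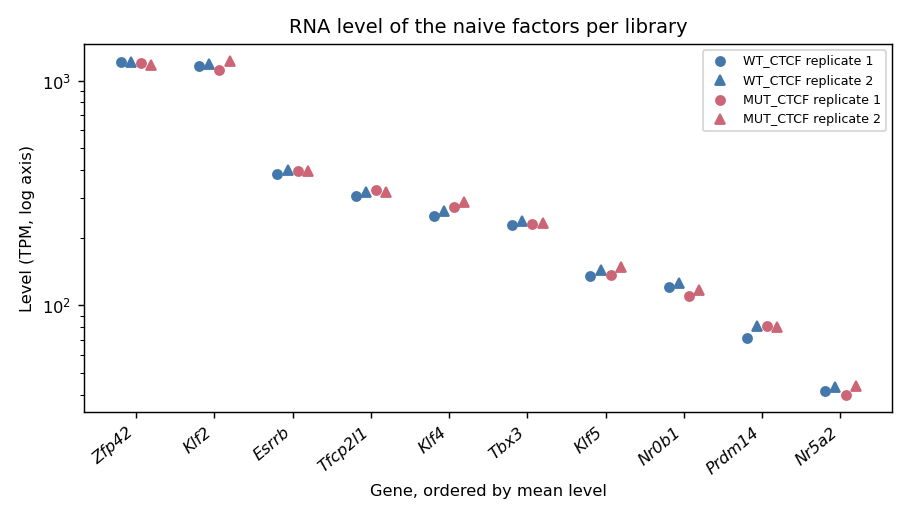
RNA level of each naive factor in TPM on a log axis, with genes ordered by mean level and 1 point per library (blue WT_CTCF, red MUT_CTCF; circles replicate 1, triangles replicate 2). Zfp42 and Klf2 overlap at 1116 to 1225 TPM, and every gene below them sits in its own band down to Nr5a2 at 39.8 to 43.7 TPM.

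The third to the tenth place in this order were taken by the same gene in all 4 libraries, and no neighbours below Klf2 overlapped. Among the 16264 genes that passed the filter, the mean level ran from the 75.1 percentile for Nr5a2 to the 99.4 percentile for Zfp42 and Klf2. The 10 genes together held 0.454% and 0.467% of the counts of the WT_CTCF libraries and 0.456% and 0.463% of the MUT_CTCF libraries. Their summed level was 3906 and 4012 TPM in WT_CTCF and 3899 and 4014 TPM in MUT_CTCF mESCs, so that the spread between replicates was wider than the gap between the lines.

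None of the 10 naive factors passed an adjusted p under 0.05 in edgeR's quasi-likelihood test, where 3.17% of all 16264 tested genes passed (253 higher and 262 lower in MUT_CTCF mESCs). At an unadjusted p under 0.05, 3 of 10 passed, Klf4 higher and Zfp42 and Nr0b1 lower, against 15.3% of all tested genes. The 2 MUT_CTCF libraries lay outside the range of the WT_CTCF libraries for the same 3 genes, against 44.7% of all tested genes. DESeq2 gave 0 adjusted and 3 unadjusted calls, and edgeR's exact test gave 0 adjusted and 2 unadjusted calls. All 10 intervals of 95% lay within a fold of 1.2 in either direction (0.26 on the log2 scale), with a lowest bound of -0.25 for Nr0b1 and a highest of 0.16 for Klf4.

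Among the KLF factors, which bind CACC and GC-rich elements and can stand in for one another in self-renewal, Klf4 was the one whose libraries separated. Klf4 (chr4:55540013-55545347, mm9, minus strand) had 11695 and 12147 normalized counts in WT_CTCF and 12472 and 13055 in MUT_CTCF mESCs. Neither MUT_CTCF library reached down to the WT_CTCF pair. The log2 difference was 0.098 ± 0.0325 (SE, n = 2 per line) with an interval of 0.033 to 0.16, a mean difference of 7.07%, and an adjusted p of 0.0851 by edgeR. Over the alternatives with all 4 libraries this p ran from 0.0412, with the replicate number as a term, to 0.428, with no filter on low counts. With a library left out, the log2 difference ran from 0.064, without MUT_CTCF replicate 2, to 0.13, and did not pass. Klf2 (chr8:74842932-74845555, plus strand) had 32689 and 33071 normalized counts in WT_CTCF and 30570 and 33629 in MUT_CTCF mESCs. Its MUT_CTCF libraries fell on either side of both WT_CTCF libraries, with a log2 fold change of -0.035 ± 0.0278 and an interval of -0.09 to 0.021. Klf5 (chr14:99697910-99712624, plus strand) had 3525 and 3700 normalized counts in WT_CTCF and 3465 and 3787 in MUT_CTCF mESCs. The MUT_CTCF libraries again enclosed the WT_CTCF libraries, and the log2 fold change was 0.0054 ± 0.0502 with an interval of -0.095 to 0.11. The sign for Klf2 turned without MUT_CTCF replicate 1 (0.033), and that for Klf5 turned without WT_CTCF replicate 1 (-0.03) or MUT_CTCF replicate 2 (-0.061).

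**Figure D2:**
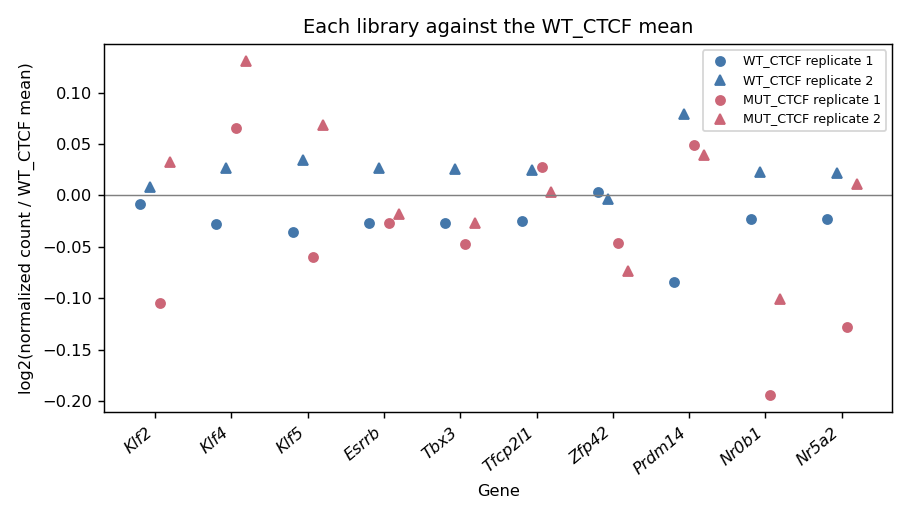
Normalized count of each library divided by the mean of the 2 WT_CTCF libraries, on a log2 axis, for the 10 naive factors (blue WT_CTCF, red MUT_CTCF; circles replicate 1, triangles replicate 2). The MUT_CTCF points lie wholly above the WT_CTCF points for Klf4, wholly below them for Zfp42 and Nr0b1, and the ranges of the lines overlap for the other 7.

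Of the 3 nuclear receptors, Nr0b1 was lower in both MUT_CTCF libraries, and Esrrb and Nr5a2 overlapped. Nr0b1 (chrX:83437103-83441286, plus strand) had 3331 and 3437 normalized counts in WT_CTCF and 2957 and 3156 in MUT_CTCF mESCs. The gap between the lines was wider than that between either pair of replicates. The log2 fold change was -0.15 ± 0.0517 with an interval of -0.25 to -0.043, a mean difference of -9.68%, and an adjusted p of 0.115 by edgeR. Over the alternatives with all 4 libraries this p ran from 0.0728 to 0.4, and with a library left out the log2 difference ran from -0.10, without MUT_CTCF replicate 1, to -0.20, without MUT_CTCF replicate 2. Esrrb (chr12:87702067-87862578, plus strand) had 35313 and 36656 normalized counts in WT_CTCF and 35320 and 35542 in MUT_CTCF mESCs. Both MUT_CTCF values fell between the WT_CTCF values, and the log2 fold change was -0.022 ± 0.0246 with an interval of -0.072 to 0.027. Nr5a2 (chr1:138740161-138857004, minus strand) had 2435 and 2512 normalized counts in WT_CTCF and 2263 and 2493 in MUT_CTCF mESCs. Its MUT_CTCF replicate 2 fell between the WT_CTCF libraries, and the log2 fold change was -0.057 ± 0.0589 with an interval of -0.17 to 0.061. The sign turned for Esrrb without WT_CTCF replicate 2 (0.0037) and for Nr5a2 without MUT_CTCF replicate 1 (0.011).

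Tfcp2l1, driven by LIF, and Tbx3, which acts beside the LIF pathway, overlapped between the lines. Tfcp2l1 (chr1:120524522-120581744, plus strand) had 43158 and 44649 normalized counts in WT_CTCF and 44739 and 44001 in MUT_CTCF mESCs. It was the best measured member, with a log2 fold change of 0.015 ± 0.0235 and an interval of -0.032 to 0.062, and its sign turned without WT_CTCF replicate 1 (-0.0095). Tbx3 (chr5:120120678-120134733, plus strand) had 18476 and 19164 normalized counts in WT_CTCF and 18214 and 18478 in MUT_CTCF mESCs. The higher MUT_CTCF library was level with the lower WT_CTCF library, and the log2 fold change was -0.037 ± 0.0286 with an interval of -0.094 to 0.021. Tbx3 shares 2.14% of its exon bases with Gm2301 on the other strand, and Tfcp2l1 shares 1.4% with an entry for a small nuclear RNA that has no read in any library. The other 8 members share no exon base with another gene.

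Zfp42, the reporter of the naive state, was slightly lower in both MUT_CTCF libraries, and Prdm14 overlapped. Zfp42 (chr8:44380422-44392363, minus strand) had 32958 and 32791 normalized counts in WT_CTCF and 31844 and 31242 in MUT_CTCF mESCs. The 2 pairs did not overlap, and the difference was -4.05% of the WT_CTCF mean. The log2 fold change was -0.06 ± 0.0247 with an interval of -0.11 to -0.01 and an adjusted p of 0.212 by edgeR, which ran from 0.163 to 0.431 over the alternatives with all 4 libraries. Prdm14 (chr1:13103538-13117244, minus strand) had 2802 and 3138 normalized counts in WT_CTCF and 3072 and 3052 in MUT_CTCF mESCs. Both MUT_CTCF libraries fell between the WT_CTCF libraries, with a log2 fold change of 0.044 ± 0.0544 and an interval of -0.065 to 0.15. This sign turned without WT_CTCF replicate 1 (-0.036).

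**Figure D3:**
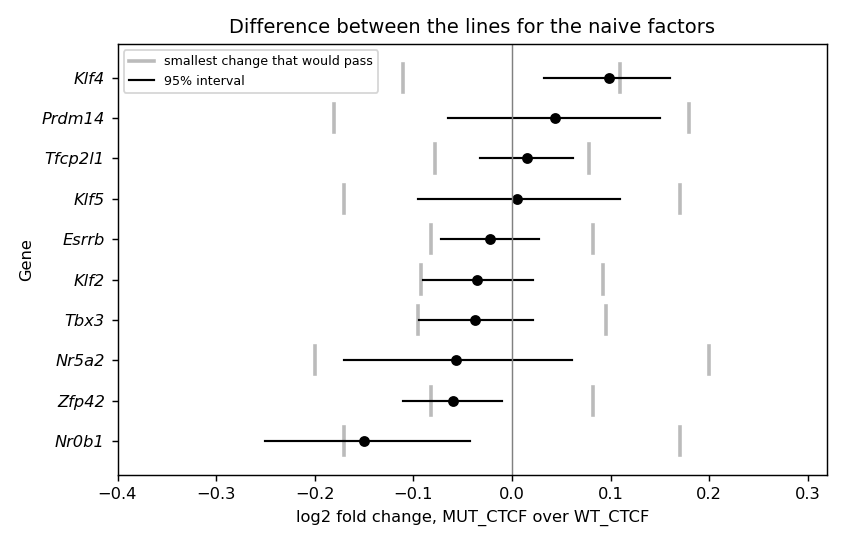
Log2 fold change of MUT_CTCF over WT_CTCF for the 10 naive factors (points) with the 95% interval (black lines) and, as grey marks, the smallest change that would have passed the threshold for that gene. No point lies beyond its grey marks, and the intervals of Klf4, Zfp42 and Nr0b1 do not include 0.

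These genes were counted deeply, at 2283 to 45128 reads per library, and this set how small a change could be called. At the largest unadjusted p that passed over all genes (0.00157), a member would have needed a log2 change of at least 0.078 for Tfcp2l1 and 0.20 for Nr5a2, and the other 8 lay between. The 3 largest differences stood close to their own limits. For Klf4 the difference was 0.098 against a limit of 0.11, for Nr0b1 it was 0.15 in size against 0.17, and for Zfp42 it was 0.06 in size against 0.082. The difference between the lines was larger than both replicate differences in 3 of 10 members, Klf4, Zfp42 and Nr0b1. These are the 3 whose libraries did not overlap, which was so for 44.7% of all tested genes. The share over all genes was not taken for the replicate differences or for the library orders that follow. Of the libraries of 1 line, WT_CTCF replicate 1 was below WT_CTCF replicate 2 in 9 of 10 and MUT_CTCF replicate 1 was below MUT_CTCF replicate 2 in 7 of 10. MUT_CTCF replicate 1 was the lowest of the 4 libraries in 5 of 10. Of the members, 4 of 10 differed upwards, the median difference was -0.029 on the log2 scale, and the median over all tested genes was 0.0034. The median size of the change was 0.0403 in the members and 0.0491 in the 3717 tested genes at or above the level of the lowest member, of which 7.86% passed.

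The naive factors were the main expressed members of most of the protein families they belong to, and their shares were close between the lines. Shares are of the summed TPM of a family, as mean ± SD of 2 libraries. Klf2, Klf4 and Klf5 held 82.6 ± 0.444% of the RNA of 17 KLF genes in WT_CTCF and 82.1 ± 0.76% in MUT_CTCF mESCs, and the next was Klf3 at 94.1 ± 1.46 and 96.1 ± 2.88 TPM. Esrrb held 91.1 ± 0.151% and 90.6 ± 0.157% of the estrogen-related receptors, ahead of Esrra at 38.1 ± 2.02 and 40.9 ± 0.682 TPM. Tbx3 held 88.8 ± 0.586% and 88.4 ± 0.154% of 16 T-box genes. Zfp42 held 92.4 ± 0.317% and 92.5 ± 0.118% of the group formed with its relative Yy1. Yy2, also in that group, shares all its exon bases with Mbtps2 on the same strand and had 0 reads, so that it was not measured here. Nr0b1 held 99.8 ± 0.271% and 99.8 ± 0.155% of the pair with Nr0b2. The remaining families were more evenly divided. Tfcp2l1 held 66.9 ± 0.573% and 66.1 ± 0.526% of 6 TFCP2 and grainyhead genes, with Ubp1 next at 80.3 ± 0.185 and 87.3 ± 2.14 TPM. Nr5a2 held 58.9 ± 1.07% and 58.9 ± 0.82% beside Nr6a1, the receptor that silences pluripotency genes on differentiation, at 29.7 ± 0.496 and 29 ± 0.923 TPM. Prdm14 held 42.3 ± 2.42% and 42.6 ± 0.321% of 15 PRDM genes, with Prdm4 next at 38.9 ± 1.63 and 39.7 ± 0.923 TPM.

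**Figure D4:**
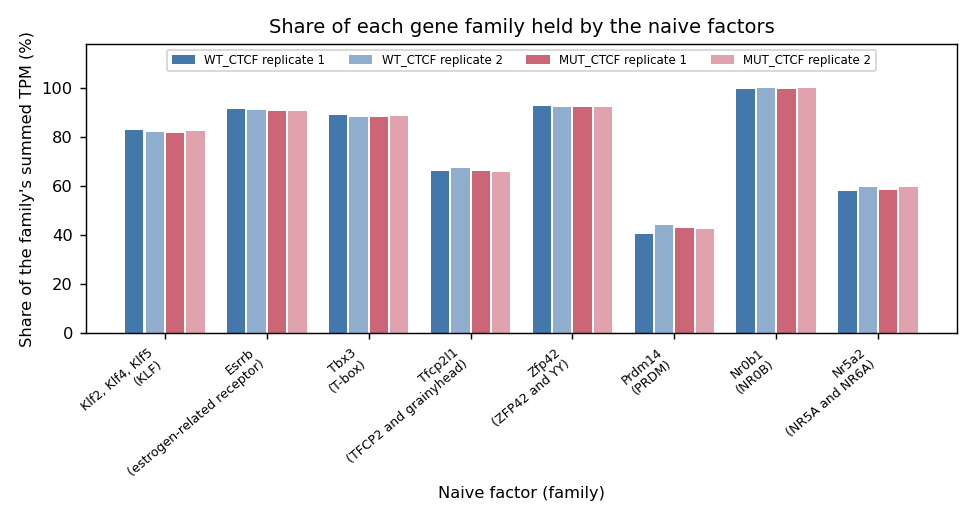
Share of each family's summed TPM held by its naive factor or factors, in percent, with 1 bar per library (blue WT_CTCF, red MUT_CTCF; paler bars replicate 2). The bars of the lines are level within each family, from about 42% for Prdm14 to 99.8% for Nr0b1.

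Of the 55 relatives in these families, 47 were tested and 0 passed by edgeR's quasi-likelihood test, against 3.17% of all tested genes. The smallest log2 change that could be called was 0.16 for Klf3 but 2.79 for Prdm13, which had few reads and a log2 difference of 1.88. The lack of calls thus sets no close limit on relatives with few reads. At an unadjusted p under 0.05 there were 6 (5 higher and 1 lower), against 15.3% of all tested genes. DESeq2 and edgeR's exact test also passed 0, with 1 and 6 at an unadjusted p under 0.05, and DESeq2 gave no adjusted p for 30 of them. The relative with the smallest p was Klf10, a TGF-beta-induced KLF, at 2936 and 3068 normalized counts in WT_CTCF and 3265 and 3401 in MUT_CTCF mESCs. Both MUT_CTCF libraries were higher, with a log2 fold change of 0.15 ± 0.0518 and an adjusted p of 0.105.

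The core factors with which the naive factors work showed 1 call among 7. This is 14.3%, against 3.17% of all tested genes and 7.86% of those at or above the level of the lowest naive factor. Sox2, the HMG-box partner of OCT4, had 20992 and 20760 normalized counts in WT_CTCF and 22123 and 22475 in MUT_CTCF mESCs. It rose by a log2 fold change of 0.095 ± 0.0272 (adjusted p = 0.0358, edgeR). This call was lost in edgeR's exact test and with no filter on low counts. It was also lost with either WT_CTCF library left out, at a log2 difference of 0.10 without replicate 1 and 0.086 without replicate 2. Sox2 and Klf4 thus differed by nearly the same log2 amount (0.095 and 0.098), one on each side of the threshold. Pou5f1 had 33171 and 32349 normalized counts in WT_CTCF and 30797 and 31581 in MUT_CTCF mESCs, a difference of -0.071 ± 0.0251 on the log2 scale with an adjusted p of 0.119. Nanog had a log2 fold change of 0.04 ± 0.0216 with an adjusted p of 0.38. The median of the list was -0.058 on the log2 scale, with 2 of 7 genes above 0.

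Among 12 other genes of the naive state, 0 rose and 2 fell, Trh and Dppa5a, and the list's median was -0.035. The share called was 16.7%, against 3.17% of all tested genes and 7.86% of those at or above the level of the lowest naive factor. Trh, which encodes the precursor of thyrotropin-releasing hormone, had 947.5 and 1036 normalized counts in WT_CTCF and 733.6 and 701.3 in MUT_CTCF mESCs. It fell by 0.47 ± 0.0919 on the log2 scale (adjusted p = 0.000785), more than any naive factor differed in value. Dppa5a, an RNA-binding protein of pluripotent cells, had 39215 and 36914 normalized counts in WT_CTCF and 35546 and 35552 in MUT_CTCF mESCs, and fell by 0.099 ± 0.0253 (adjusted p = 0.0157). The Dppa5a call did not hold in the exact test of edgeR, at an adjusted p of 0.0826, nor without WT_CTCF replicate 1, where the log2 difference was -0.055 at an adjusted p of 0.58. Of 12 genes of the formative and primed states, 10 were tested and 0 passed by edgeR's quasi-likelihood test. At an unadjusted p under 0.05 there were 4, all higher, against 15.3% of all tested genes in either direction. Pou3f1, not tested, shares all its exon bases with a second Pou3f1 entry on the same strand, so that its few reads do not measure its level. The exact test also passed 0, with 4 at an unadjusted p under 0.05, and DESeq2, which gave no adjusted p for 5 of the 10, passed 0 of the rest. The list's median was 0.031. Dnmt3a, a de novo DNA methyltransferase, had the smallest p of the list, with 2968 and 2933 normalized counts in WT_CTCF and 3342 and 3196 in MUT_CTCF mESCs, a difference of 0.15 ± 0.0519 on the log2 scale and an adjusted p of 0.113. Fgf5, the defining marker of the primed state, was at 0 reads in all 4 libraries.

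**Figure D5:**
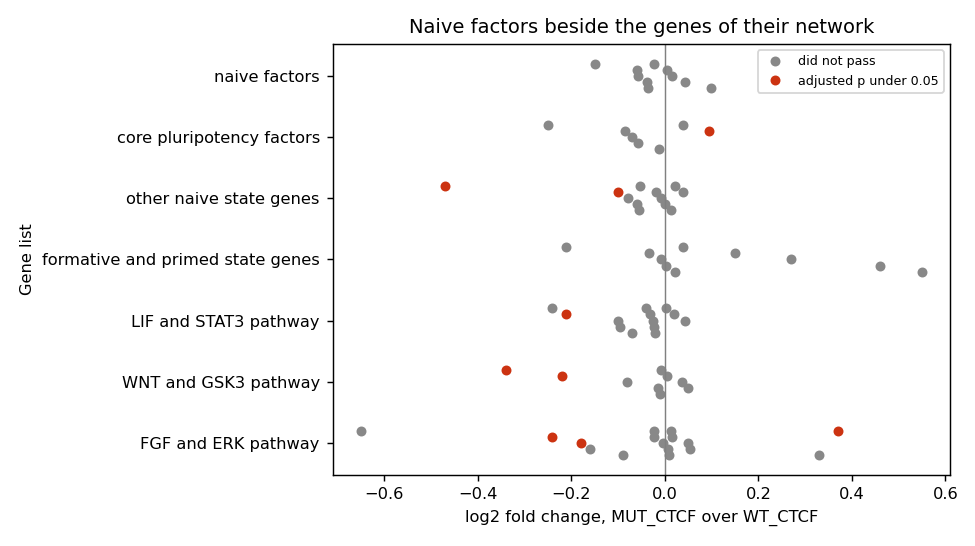
Log2 fold change of MUT_CTCF over WT_CTCF for each tested gene (points) of the naive factors and of 6 lists around them, with genes past an adjusted p of 0.05 in red. The naive factors lie between -0.15 and 0.098 with 0 in red, while each other list but the formative and primed one holds at least 1 red point.

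The pathways that feed the naive factors were read from the same fit, and their difference from the naive factors was not tested. In the LIF and STAT3 pathway, 1 of 13 genes passed, a share of 7.69% against 3.17% of all tested genes and 7.86% of those at or above the level of the lowest naive factor. Socs3, a STAT3 target and feedback inhibitor of JAK, had 7525 and 7507 normalized counts in WT_CTCF and 6344 and 6689 in MUT_CTCF mESCs, and fell by 0.21 ± 0.0382 on the log2 scale (adjusted p = 0.000315). The STAT3 targets Klf4 and Tfcp2l1 stood at 0.098 and 0.015. In the WNT and GSK3 pathway, 2 of 9 genes passed, both of them target genes. This is 22.2%, against 3.17% of all tested genes and 7.86% of those at or above the level of the lowest naive factor. Sp5 had 2558 and 2389 normalized counts in WT_CTCF and 1819 and 2090 in MUT_CTCF mESCs, and fell by 0.34 ± 0.0632 (adjusted p = 0.000335). Axin2, which encodes a scaffold of the beta-catenin destruction complex, had 4122 and 4449 in WT_CTCF and 3602 and 3774 in MUT_CTCF mESCs, and fell by 0.22 ± 0.0481 (adjusted p = 0.00397). The Axin2 call was lost without WT_CTCF replicate 2 (-0.16, adjusted p = 0.213). Esrrb, on the same branch, stood at -0.022.

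In the FGF and ERK pathway, 3 of 16 genes passed, 1 higher and 2 lower. This is 18.8%, against 3.17% of all tested genes and 7.86% of those at or above the level of the lowest naive factor. Egr1, an immediate early gene induced by ERK, had 2297 and 2304 normalized counts in WT_CTCF and 2960 and 2987 in MUT_CTCF mESCs, and rose by 0.37 ± 0.0553 on the log2 scale (adjusted p = 5.92e-06). Spry2, a feedback inhibitor of the same pathway, had 2318 and 2502 in WT_CTCF and 2006 and 2072 in MUT_CTCF mESCs, and fell by 0.24 ± 0.0605 (adjusted p = 0.013), a call lost without WT_CTCF replicate 2 (-0.19, adjusted p = 0.268). Map2k2, the kinase MEK2, had 7306 and 7126 in WT_CTCF and 5999 and 6731 in MUT_CTCF mESCs, and fell by 0.18 ± 0.0412 (adjusted p = 0.00518). The Map2k2 call was lost without WT_CTCF replicate 1 (-0.16, adjusted p = 0.0986), and leaving out MUT_CTCF replicate 1 or replicate 2 gave a log2 difference of -0.10 or -0.27. Egr1 and Spry2, both induced by ERK, thus went in opposite directions. Of the list's other Spry, Dusp and Etv genes, Spry4 stood at -0.65, Dusp6 at -0.16, Etv4 at -0.09, Etv5 at -0.022 and Dusp4 at 0.05. None of these passed. The list's median was 0.0019, over targets and kinases together. Without either MUT_CTCF library 0 genes passed over the whole table, so that the loss of a call there is not particular to these genes. The log2 differences then were 0.38 and 0.36 for Egr1, -0.50 and -0.44 for Trh, -0.17 and -0.25 for Socs3 and -0.24 and -0.44 for Sp5, without replicate 1 and replicate 2 in turn. With no filter on low counts, Egr1 alone of the calls in these lists was kept.

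Markers of other cells were checked beside the naive factors. Over all tested genes, 3.17% were called by edgeR and 15.3% had an unadjusted p under 0.05. Summed primitive endoderm markers were 717.1 to 736.7 normalized counts in WT_CTCF and 772.3 to 962.6 in MUT_CTCF mESCs, with 0 of 6 tested genes called by edgeR (2 at an unadjusted p under 0.05). Summed markers of the 2-cell-like state, a rare state that passes through mESC cultures, were 3158 to 3228 in WT_CTCF and 2363 to 2529 in MUT_CTCF mESCs. Of 7 tested, 2 were called by edgeR, Zscan4d and Gm4340, both lower. At an unadjusted p under 0.05 there were 6 of 7, all lower, against 15.3% of all tested genes in either direction. The log2 fold change was above 0 in 0 of 7. Zscan4d and Gm4340 belong to multicopy families. Only uniquely mapped reads were counted, so that reads matching several copies alike were left out. Of 7 trophectoderm markers tested, Cdx2 alone passed, at -0.97 ± 0.177 on the log2 scale (adjusted p = 0.000227, edgeR). The summed markers were 4299 to 4549 and 4317 to 4455. Tfap2c alone held 3586 to 3888 of this sum over the 4 libraries, so that the sum mostly follows that gene. Feeder fibroblast markers summed to 1862 to 1916 and 1895 to 2114, with 0 of 5 tested genes called by edgeR (1 at an unadjusted p under 0.05) and Lum at 0 in all libraries. Mesendoderm markers summed to 993.6 to 1050 and 916.4 to 957.7, and neural ectoderm markers to 2604 to 2635 and 2797 to 2839, with 0 called in either by edgeR (0 at an unadjusted p under 0.05). Of the neural ectoderm sum, Nes alone held 2559 to 2804 over the 4 libraries. The exact test of edgeR called 0 in all 4 lists without a call. DESeq2 gave no adjusted p for most markers of other cells, among them all 7 of the 2-cell-like and 6 of 7 of the trophectoderm list, so that it could not bear on these lists, and the Cdx2, Zscan4d and Gm4340 calls were not made by it. Of 8 mESC markers, 3 passed by edgeR, a share of 37.5% against 3.17% of all tested genes. Sox2 rose, and Utf1 (adjusted p = 0.00499) and Dppa4 (adjusted p = 0.0462) fell, each by 0.21 on the log2 scale. Over the alternatives with all 4 libraries, the adjusted p ran up to 0.192 for Utf1 and 0.246 for Dppa4. DESeq2 called only 1 of the list lower. Whether a change in the mix of cells plays a part in the values of Klf4, Zfp42 and Nr0b1 was not tested.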

How the data were processed

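RNA-seq reads of 2 WT_CTCF and 2 MUT_CTCF mESC libraries were trimmed by the authors with Trim Galore 0.4.4 and aligned to mm9 with STAR, and uniquely mapped reads were counted with HTSeq 0.9.1 (versions from the submitters' processing notes). The deposited counts per gene were not normalized. The strand setting is not given in the sources used here. The authors' edgeR table of log2 fold changes, p-values and false discovery rates was not used.

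Genes were named and placed with GENCODE M1 (NCBIM37, mm9), which named 37205 of 37620 identifiers. Of 180 list genes, 177 were matched, 3 of these through a RefSeq synonym. Tfcp2l1 was one of them. Sox1, Tcstv1 and Tcstv3 were not matched. Genes were kept by filterByExpr (minimum count 10), scaled by TMM (factors 0.994 to 1.01) and tested with glmQLFit and glmQLFTest in edgeR 4.0.16 (R 4.3.3, limma 3.58.1) on the line alone, with Benjamini-Hochberg adjustment over 16264 genes. The SE is the size of the log2 fold change over the root of F, and the 95% interval uses the fit's total degrees of freedom. TPM was computed over the union of exons. With 2 libraries a line, the smallest exact permutation p for a single gene is 0.333, so only the fit across genes was used. DESeq2 1.42.0, edgeR's exact test, other scalings and filters, a replicate term and leaving out each library were tried as alternatives. Promoters came from the RefSeq table of GRCm38.p6.

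The members and lists were chosen with earlier results of these data known. The genes named were the 10 members, and, of each other list, up to 3 with the smallest p among those past an adjusted p of 0.05 (where none passed, the 1 with the smallest p), with Pou5f1, Sox2, Nanog and Ctcf. Fgf5, Pou3f1, Spry4, Dusp4, Dusp6, Etv4, Etv5, Prdm13 and the marker genes were named after their values were seen.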

Additional observations from a re-analysis of the deposited data

How the results depend on the processing

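Of 70 values of the naive factors under 7 alternatives that kept all libraries, 69 kept their direction and their side of the threshold. The exception was Klf4, which passed with a replicate block (log2 fold change 0.098, adjusted p = 0.0412), so that 1 naive factor was called higher there. With that block 326 genes were called higher and 372 lower over all genes, and the calls of the other 9 members did not change. Deviations of same-numbered libraries from their line means had a correlation of -0.0192, so the numbers were not taken to pair the samples.

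Leaving out a library kept 33 of 40 values. The other 7 turned sign, in 6 genes whose values ran from -0.11 to 0.033 for Klf2, -0.061 to 0.068 for Klf5 (also -0.03), -0.049 to 0.0037 for Esrrb, -0.0095 to 0.039 for Tfcp2l1, -0.036 to 0.13 for Prdm14 and -0.13 to 0.011 for Nr5a2. Over all genes, calls ran from 0 to 140 higher and from 0 to 102 lower with a library left out, where a lone library was assumed to vary like the other line. DESeq2 called 129 higher, and gave no adjusted p for 9144 genes. Scaling by library size alone called 152 lower. With no filter on low counts 26 were higher and 3 lower, and at the criterion of a fold above 2 and an unadjusted p under 0.05, 154 were higher and 58 lower. The cause was not tested. Of the 2 calls higher in the lists around the naive factors, Sox2 and Egr1, 1 was left in the exact test and with no filter (Egr1), and 0 to 1 with a library left out. At the fold criterion neither was left, and the count of 1 was another gene, Prdm13, at 4 and 5 against 17 and 17 reads. Of the 7 lower, the exact test lost Dppa5a and called Junb instead, 0 were left with no filter and at the fold criterion, and 0 to 5 with a library left out.

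Levels over the longest transcript were lower or higher than over the union of exons but kept their order, at 993 TPM for Zfp42, 976 for Klf2, 461 for Esrrb, 264 for Tfcp2l1, 225 for Klf4, 207 for Tbx3, 117 for Klf5, 98.8 for Nr0b1, 65.3 for Prdm14 and 36.4 for Nr5a2.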
